A study of Mus musculus with 12 samples.

Results

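The genes described here are 7 targets of the liver X receptors (LXRs) that move sterols and plasma lipids. They are Lpl (lipoprotein lipase), Pltp (phospholipid transfer protein), the ABC transporters Abcg5, Abcg8, Abca1 and Abcg1, and Mylip, a ubiquitin ligase also called IDOL. They were chosen by name, with earlier results of these data known. A transcript cluster, the array's set of probes for 1 transcript unit, was taken where the platform annotation gave it that symbol alone. Each of the 7 genes had exactly 1 such cluster, so they were 7 of 21789 tested clusters (19938 genes), and none was dropped, because no filter on level was used.

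Total RNA of 12 mouse liver samples was measured on Affymetrix mouse Gene 1.0 ST arrays. There were 3 samples in each of 4 groups. Control samples were from euthyroid (numbers 13, 14, 15) or hypothyroid mice (17, 18, 20), and so were the mutant samples (2, 3, 4 when euthyroid; 5, 6, 7 when hypothyroid). Mutant here means L-NCoR∆ID, a strain known to make in the liver a shortened nuclear receptor corepressor, NCoR, that lacks domains through which it binds nuclear receptors. The labels give neither the Cre driver, the alleles of the controls, the age, the sex nor the way hypothyroidism was brought about, and they do not say whether the controls share an allele with the mutants. The altered gene, Ncor1, was not analysed here, so the genotype labels were not checked on it. The design asks how NCoR acts on genes that thyroid hormone raises or lowers in liver, and the 7 genes bear on a neighbouring receptor that uses the same corepressor.

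LXRs are nuclear receptors that sense oxysterols. They sit on DNA as partners of the retinoid X receptor (RXR), bind corepressors such as NCoR and SMRT while no ligand is present, and exchange them for coactivators when an oxysterol binds. Their target genes send surplus cholesterol out of cells, into bile and onto high-density lipoprotein (HDL), and raise fatty acid synthesis. Thyroid hormone receptors work as RXR partners too and share the corepressor.

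Sequences upstream of the genes are shown first because they place the members on the genome and because 2 of them share a promoter region. RefSeq windows of 250 bases before the annotated start (assembly GRCm38.p6) were at hand for 5 of the 7 members, Pltp, Abcg5, Abcg8, Abca1 and Mylip. The windows were searched on both strands for the TATA box letters TATAAA and for the direct repeat that LXR and RXR bind, which is AGGTCA followed by any 4 bases and AGGTCA again, with up to 3 mismatches in its 12 fixed letters. Matches are in capitals. Abcg5 and Abcg8 lie head to head, 110 bases apart, and the first line is the whole stretch between their start sites, with Abcg5 running to the left and Abcg8 to the right.
Abcg5 and Abcg8, between the start sites (chr17:84683012-84683120, plus strand): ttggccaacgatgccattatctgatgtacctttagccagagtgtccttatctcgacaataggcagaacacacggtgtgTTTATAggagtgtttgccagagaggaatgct
Abca1, upstream (chr4:53159896-53160145, minus strand): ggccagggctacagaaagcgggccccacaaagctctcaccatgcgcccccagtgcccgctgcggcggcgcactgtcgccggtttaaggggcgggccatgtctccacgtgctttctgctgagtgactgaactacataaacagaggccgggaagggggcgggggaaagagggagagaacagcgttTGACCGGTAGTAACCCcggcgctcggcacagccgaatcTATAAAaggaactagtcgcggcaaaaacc
Pltp, upstream (chr2:164857709-164857958, minus strand): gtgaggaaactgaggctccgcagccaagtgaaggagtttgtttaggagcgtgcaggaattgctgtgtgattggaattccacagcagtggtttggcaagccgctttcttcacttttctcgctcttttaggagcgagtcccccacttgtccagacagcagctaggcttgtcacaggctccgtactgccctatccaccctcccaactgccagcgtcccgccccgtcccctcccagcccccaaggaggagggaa

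The TATAAA letters stood in a window of 4 of the 5 genes, against 12.4% of 32851 windows of the same length over all genes. Here and for the direct repeat, members are counted as genes and the share is of windows, and Abcg8 had 2 windows. In the Abcg5 and Abcg8 pair these are the same 6 bases, read on opposite strands, 79 bases from the Abcg5 start and 26 bases from the Abcg8 start. In Abca1 they began 29 bases before the start and in Mylip 32 bases before it. The direct repeat had a match in 1 of the 5 genes, Abca1, with 3 mismatches, 67 to 52 bases before the start, against 18.5% of all windows. A match describes letters only, and the lack of one says nothing about binding elsewhere. The second window listed for Abcg8, at a start further upstream, held neither motif.

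The arrays are those of liver: 7 hepatocyte markers averaged 12.67 to 12.99 (log2) per array. Array medians lay between 4.16 and 4.32. The spread of signal over an array (its SD over all clusters) was 2.22 to 2.28 in euthyroid controls, 2.29 to 2.30 in hypothyroid controls, 2.26 to 2.31 in euthyroid mutants and 2.32 to 2.35 in hypothyroid mutants. This spread moved with the groups, and its part in the results below was not tested beyond a fit that holds it as a covariate. The labels give no array batch. They do not state that each sample is a separate animal, so p-values measure the spread between these samples. In whole liver, fewer cells of a type and less RNA per cell cannot be told apart.

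Of the 7 genes Lpl, Pltp and Abcg5 passed a test with mutation, Lpl also with hypothyroidism, and Abcg8, Abca1, Abcg1 and Mylip passed in neither. For mutant against control averaged over thyroid states, Pltp was 2.89-fold, Lpl 2.55-fold and Abcg5 1.59-fold higher in mutants, and these 3 of 7 members passed the test, against 1.14% of all clusters. Lpl rose with hypothyroidism in both genotypes, 8.96-fold in controls and 4.04-fold in mutants. These are folds of signal: Lpl in euthyroid controls lay near the array medians, and whether it was above background was not tested. Lpl was the 1 of 7 members called in each of those comparisons, against 1.11% of all clusters in each. Hypothyroid arrays lay above every euthyroid array for 3 of 7 members in controls (Lpl, Pltp and Abcg1), against 8.78% of all clusters. In mutants this held for 4 of 7 (Lpl, Abcg5, Abcg8 and Abca1), against 14.6%. A call here is an adjusted p under 0.05 in limma, with Benjamini-Hochberg adjustment over all 21789 clusters. Because the members were chosen with earlier results known, their counts beside shares of all clusters, here and below, are a description.

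Within 1 thyroid state no member passed. In euthyroid mice 0 of 7 members were called for mutant against control in limma (0.129% of all clusters), while 4 of 7 had an unadjusted p under 0.05 (8.13% of all clusters). In hypothyroid mice 0 of 7 were called in limma (0.262% of all clusters), and again 4 of 7 had an unadjusted p under 0.05 (10.4% of all clusters). The median difference over the members was 0.31 (log2) in euthyroid and 0.57 in hypothyroid mice, beside 0.00 and -0.02 over all clusters. Every mutant array lay above every control array for 3 of 7 members in euthyroid mice, against 5.05% of all clusters, and for 3 of 7 in hypothyroid mice, against 12.4%. The groups that set these counts differ: Lpl, Pltp and Abca1 in euthyroid mice, and Abcg5, Abcg8 and Abca1 in hypothyroid mice.

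**Figure D1:**
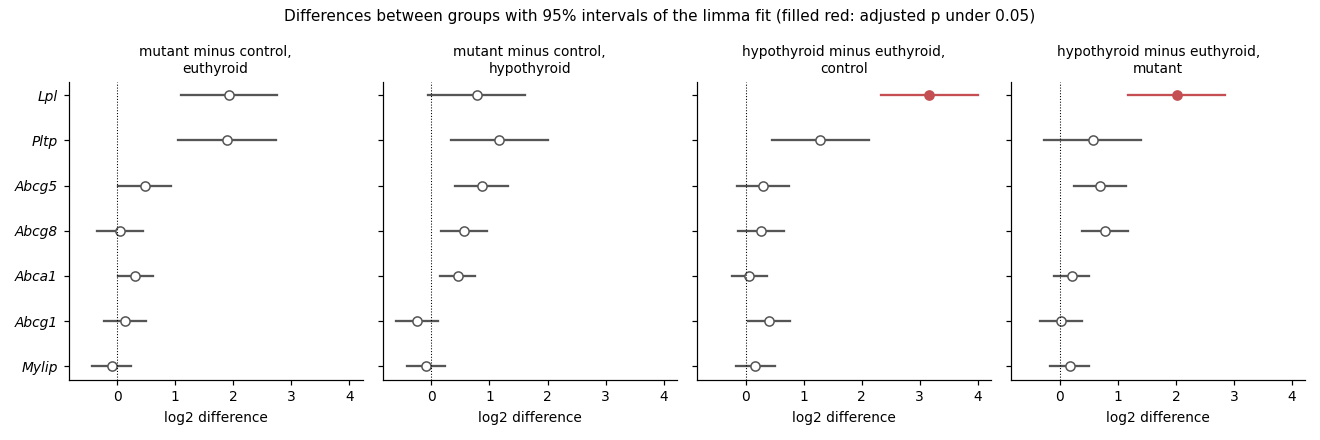
Log2 differences of the 7 genes in 4 comparisons, with 95% intervals of the limma fit (12 arrays, 3 per group). Lpl in the 2 hypothyroid against euthyroid comparisons (3.16 in controls, 2.02 in mutants) is filled because its adjusted p was under 0.05. Open circles did not pass.

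Lpl encodes the lipase that splits triglycerides of circulating lipoproteins at the vessel wall. It is made mainly in fat and muscle, and adult liver is known for low levels. Its log2 signal was 4.89, 4.28 and 4.66 in euthyroid control replicates 13, 14 and 15, near the array medians. It was 7.11, 7.97 and 8.25 in hypothyroid control replicates 17, 18 and 20. All 3 hypothyroid controls thus lay more than 2 log2 units above all 3 euthyroid controls, and the groups did not overlap.

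In mutants the Lpl signal was 6.65, 7.16 and 5.80 in euthyroid replicates 2, 3 and 4. In hypothyroid mutant replicates 5, 6 and 7 it was 7.62, 8.93 and 9.10. Euthyroid mutants lay above euthyroid controls on every array, whereas hypothyroid mutants overlapped hypothyroid controls. The order of the group means was euthyroid controls (4.61 ± 0.30, SD, n = 3), euthyroid mutants (6.54 ± 0.69), hypothyroid controls (7.77 ± 0.59) and hypothyroid mutants (8.55 ± 0.81).

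The rise of Lpl with hypothyroidism in controls was 3.16 ± 0.39 (log2 difference ± SE, adjusted p = 0.000611, limma). By signed difference it ranked 3 from the top among the 21789 clusters, and 0.124% of clusters had a smaller p. It stayed called under all 21 alternative settings, with differences from 2.47 to 3.50 and adjusted p from 1.1e-06 to 0.00811. The rise in mutants was 2.02 ± 0.39 (adjusted p = 0.0198). That call was lost without mutant euthyroid replicate 2 (adjusted p = 0.0662) or 4 (0.11) and without mutant hypothyroid replicate 6 (0.0928) or 7 (0.119). Over its 21 alternatives the adjusted p ran from 0.0044 to 0.588, the highest with array SD as a covariate, where the difference was 0.96.

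Mutant against control, Lpl differed by 1.93 ± 0.39 in euthyroid mice (3.80-fold, adjusted p = 0.081) and by 0.78 ± 0.39 in hypothyroid mice (adjusted p = 0.507). Neither passed, although the euthyroid difference passed without control euthyroid replicate 13 (adjusted p = 0.04) or mutant hypothyroid replicate 5 (0.0355). With array SD as a covariate the hypothyroid difference was -0.055, so its direction depends on that choice. Averaged over thyroid states, Lpl rose by 1.35 ± 0.28 (adjusted p = 0.0282), rank 30 from the top by signed difference. With array SD as a covariate the difference was 0.70 (adjusted p = 0.53). Left out one at a time, 8 of the 12 arrays ended that call: numbers 14 (adjusted p = 0.0661) and 15 (0.0639) of the euthyroid controls, 17 (0.0888) and 18 (0.0588) of the hypothyroid controls, 2 (0.0711) and 3 (0.0718) of the euthyroid mutants, and 6 (0.0796) and 7 (0.0746) of the hypothyroid mutants. Its adjusted p over 20 alternatives ran from 0.00103 to 0.53. The call was also lost with every cluster of the table tested (0.127) and with a variance trend and robust fit (0.0833). Without both control euthyroid 14 and mutant hypothyroid 7 it was lost too (0.14).

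No neighbouring groups in the Lpl order differed past the threshold: the steps were 1.93, 1.24 (adjusted p = 0.135) and 0.78. The mutant effect was smaller by 1.15 ± 0.55 in hypothyroid than in euthyroid mice (95% interval of the difference -2.33 to 0.03), and this interaction did not pass (adjusted p = 1). For the interaction 0 of 7 members were called in limma, against 0% of all clusters. None of the 7 members had an unadjusted p under 0.05 for it either, against 2.75% of all clusters.

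**Figure D2:**
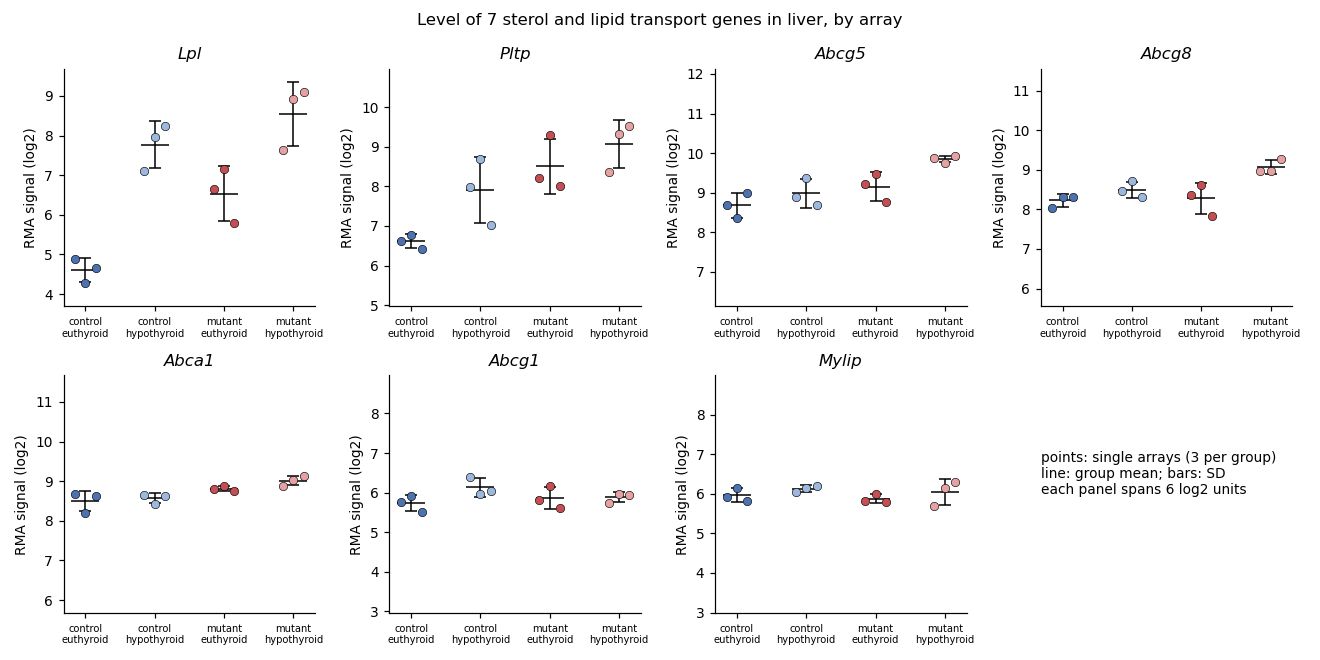
RMA log2 signal of the 7 genes, 1 point per array, with group means and SD (n = 3 per group); every panel spans 6 log2 units. Lpl and Pltp vary over the widest range (4.81 and 3.09 log2 units over the 12 arrays), Mylip over the narrowest (0.61).

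Because macrophages, fat cells and muscle cells express Lpl, the markers of these cells were read beside it. The mean log2 signal of 12 Kupffer cell and macrophage markers was 5.73 to 5.82 in euthyroid controls and 5.23 to 5.43 in hypothyroid controls, so it was lower where Lpl was higher. It was 6.09 to 6.89 in euthyroid mutants and 5.27 to 6.08 in hypothyroid mutants, above the controls on every array in the euthyroid state, as Lpl was. Of these 12 markers 12 had a higher value in euthyroid mutants than in euthyroid controls. In limma 0 of them were called there, against 0.129% of all clusters, and 8 had an unadjusted p under 0.05, against 8.13%. In hypothyroid mutants against hypothyroid controls 11 of 12 had a higher value and 0 were called, against 0.262% of all clusters. In hypothyroid against euthyroid controls 0 of 12 had a higher value. In hypothyroid against euthyroid mutants it was also 0 of 12, with 1 called lower, against 1.11% of all clusters. In the averaged mutant effect 12 of 12 had a higher value and 7 had an unadjusted p under 0.05, against 16.7% of all clusters. There 1 was called, against 1.14% of all clusters. It was Adgre1, which encodes the macrophage antigen used to stain Kupffer cells (0.66, adjusted p = 0.0427). In euthyroid mutants against hypothyroid controls 12 of 12 had a higher value and 6 were called, against 2.64% of all clusters. In hypothyroid mutants against euthyroid controls 3 of 12 had a higher value and 0 were called, against 8.33%. The part of these cells in the mutant differences of Lpl, Pltp and the other members was not tested.

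The mean of 5 adipocyte markers was 3.39 to 3.74 in euthyroid controls and 3.44 to 3.55 in hypothyroid controls, and it was 3.34 to 3.54 and 3.23 to 3.43 in euthyroid and hypothyroid mutants. Adipoq, the adipocyte hormone adiponectin, lay between 2.02 and 2.49 on the 12 arrays, below every array's median. So did Lep (2.37 to 3.09) and Retn (3.22 to 3.82), while Plin1 (3.66 to 4.94) and Cidec (4.08 to 4.77) reached above the array medians. Of the 5 adipocyte markers, 2 had a higher value in hypothyroid than in euthyroid controls. The mean of 4 muscle markers was 4.25 to 5.12 in euthyroid controls and 4.24 to 4.37 in hypothyroid controls. The group mean of each list was lower in hypothyroid controls and in each mutant group than in euthyroid controls. The part of fat and muscle cells in the Lpl differences was not tested. Endothelial markers (6 genes) ranged from 5.94 to 6.13 in euthyroid controls and from 6.14 to 6.29 in hypothyroid controls. They ranged from 6.01 to 6.26 in euthyroid mutants and from 5.94 to 6.71 in hypothyroid mutants. Of the 6 genes, 5 had a higher value in hypothyroid than in euthyroid controls. In limma 0 were called there, against 1.11% of all clusters, and 0 had an unadjusted p under 0.05. The part of endothelial cells was not tested either.

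**Figure D3:**
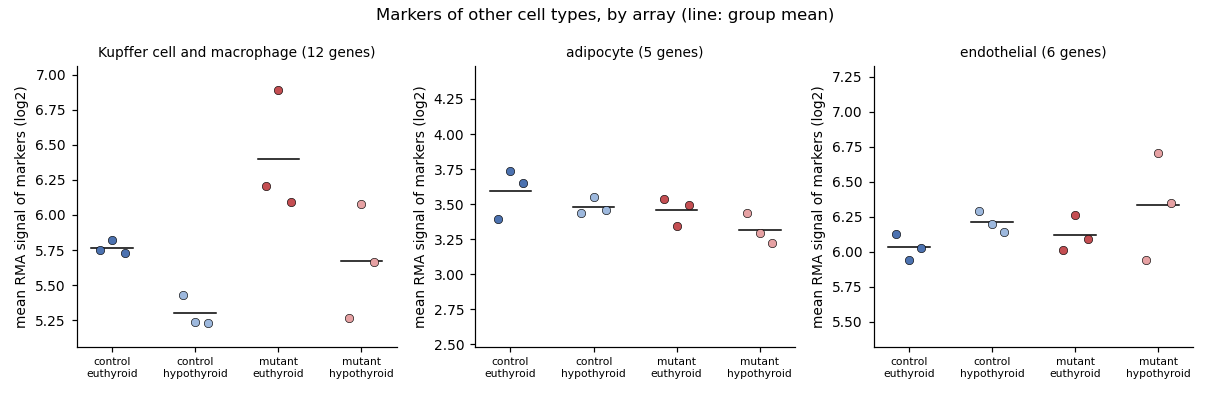
Mean RMA log2 signal of marker genes of 3 other cell types, 1 point per array, with the group mean as a line; each panel spans the same number of log2 units. Kupffer cell markers are lowest in hypothyroid controls (5.23 to 5.43) and highest in euthyroid mutants (6.09 to 6.89), while adipocyte markers stay between 3.23 and 3.74.

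Pltp encodes a plasma protein that carries phospholipids between lipoproteins and reshapes HDL. Its log2 signal was 6.63, 6.78 and 6.43 in euthyroid control replicates 13, 14 and 15, and 7.99, 8.69 and 7.03 in hypothyroid control replicates 17, 18 and 20. In mutants it was 8.21, 9.30 and 8.01 in euthyroid replicates 2, 3 and 4, and 8.37, 9.33 and 9.52 in hypothyroid replicates 5, 6 and 7. The euthyroid controls stood below all other arrays, while each of the other 3 groups overlapped its neighbour.

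Pltp was higher by 1.89 ± 0.39 in euthyroid mutants than in euthyroid controls (3.71-fold, adjusted p = 0.0926) and by 1.17 ± 0.39 in hypothyroid mice (2.25-fold, adjusted p = 0.319); neither passed. The average over thyroid states, 1.53 ± 0.28, passed (adjusted p = 0.014) and ranked 21 from the top by signed difference. This call was kept whichever single array was left out. It was lost without both control euthyroid 14 and mutant hypothyroid 7 (1.46, adjusted p = 0.0619) and with array SD as a covariate (1.18, adjusted p = 0.317). A variance trend with robust fit (0.0642) and testing every cluster of the table (0.0856) ended it too. Arrays 14 and 7 had the lowest and the highest array SD (2.22 and 2.35). They are called the outlying arrays here, and no test marked them as aberrant. Over 20 alternatives the adjusted p ran from 0.000427 to 0.317.

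Hypothyroid against euthyroid, Pltp differed by 1.29 ± 0.39 in controls (2.44-fold, adjusted p = 0.147) and by 0.57 ± 0.39 in mutants (adjusted p = 0.486). No neighbours in the order of its group means (6.62 ± 0.18 in euthyroid controls, 7.90 ± 0.83 in hypothyroid controls, 8.51 ± 0.70 in euthyroid mutants, 9.07 ± 0.61 in hypothyroid mutants, SD, n = 3) differed past the threshold. Both Pltp and Lpl varied much between samples of 1 group. Their pooled within-group SD was 0.63 each, larger than that of 99.5% and 99.4% of all clusters, whose median was 0.19.

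Abcg5 and Abcg8 encode half-transporters that join into 1 pump, which moves cholesterol and plant sterols from hepatocytes into bile. Abcg5 read 8.69, 8.35 and 8.996 in euthyroid control replicates 13, 14 and 15, and 8.89, 9.38 and 8.68 in hypothyroid control replicates 17, 18 and 20. It read 9.22, 9.47 and 8.75 in euthyroid mutant replicates 2, 3 and 4, and 9.87, 9.76 and 9.92 in hypothyroid mutant replicates 5, 6 and 7. The hypothyroid mutants stood above all 9 other arrays and lay close together (SD 0.08), while the other 3 groups overlapped.

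Abcg8 followed a like course. It read 8.04, 8.32 and 8.31 in euthyroid controls, and 8.47, 8.71 and 8.30 in hypothyroid controls (replicates in the same order). It read 8.37, 8.62 and 7.84 in euthyroid mutants, and 8.96, 8.96 and 9.27 in hypothyroid mutants. Again the 3 hypothyroid mutants stood above every other array and the remaining groups overlapped.

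In hypothyroid mice Abcg5 differed between mutant and control by 0.86 ± 0.21 (1.82-fold, adjusted p = 0.147) and Abcg8 by 0.57 ± 0.19 (1.48-fold, adjusted p = 0.303). In euthyroid mice the differences were 0.47 ± 0.21 (adjusted p = 0.593) for Abcg5 and 0.051 ± 0.19 (adjusted p = 0.959) for Abcg8. The mutant effect on Abcg8 in euthyroid mice changed sign after quantile normalization (-0.0050), with array SD as a covariate (-0.024) and with array weights (-0.056). For mutants, the differences between hypothyroid and euthyroid mice were 0.79 ± 0.19 (1.72-fold, adjusted p = 0.0597) for Abcg8 and 0.70 ± 0.21 (1.62-fold, adjusted p = 0.151) for Abcg5. The Abcg8 difference passed without control euthyroid replicate 13 (adjusted p = 0.0412) or 14 (0.0409) and without mutant euthyroid replicate 3 (0.0296), and after median centring (0.0469), over clusters above the median level (0.0485), with array weights (0.0203) and with a variance trend and robust fit (0.0456). In controls hypothyroidism went with 0.30 ± 0.21 in Abcg5 and 0.27 ± 0.19 in Abcg8, and neither passed (adjusted p = 0.567 and 0.565).

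Averaged over thyroid states, Abcg5 rose by 0.67 ± 0.15 in mutants (adjusted p = 0.0438), while Abcg8 differed by 0.31 ± 0.13 (adjusted p = 0.256). A difference between these 2 genes in their mutant effect was not tested. The call of Abcg5 was lost when any of 8 arrays was left out: number 14 (adjusted p = 0.0896) of the euthyroid controls, 17 (0.129) and 20 (0.0952) of the hypothyroid controls, 2 (0.0929) and 3 (0.113) of the euthyroid mutants, and 5 (0.0888), 6 (0.0834) and 7 (0.103) of the hypothyroid mutants. Over its 20 alternatives the adjusted p ran from 0.0125 to 0.557, and quantile normalization gave 0.0518. Testing every cluster of the table gave 0.138, and leaving out both outlying arrays gave 0.165. With array SD as a covariate the Abcg5 difference was 0.43 (adjusted p = 0.557). The interaction of Abcg8 was 0.52 ± 0.26 (95% interval -0.04 to 1.08) and that of Abcg5 0.39 ± 0.30 (-0.24 to 1.03), and neither passed (adjusted p = 1 for both).

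Over the 12 arrays, in 4 groups of 3, Abcg5 and Abcg8 had the highest r of the 21 pairs of members (r = 0.87), given as a description. After the group means were taken out, r was 0.73, and Pltp and Abcg8, which lie on different chromosomes, had the same value (0.73). Lpl and Mylip had 0.68 within groups, and Lpl and Pltp 0.46 (0.78 over the 12 arrays). The euthyroid mutant replicate 4 was the lowest of its group in both Abcg5 and Abcg8 (8.75 and 7.84) and replicate 3 the highest (9.47 and 8.62). In euthyroid controls the order differed: replicate 14 had the lowest Abcg5 (8.35) and the highest Abcg8 (8.32). The 2 signals of a point come from 1 array, with its RNA sample and normalization in common.

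**Figure D4:**
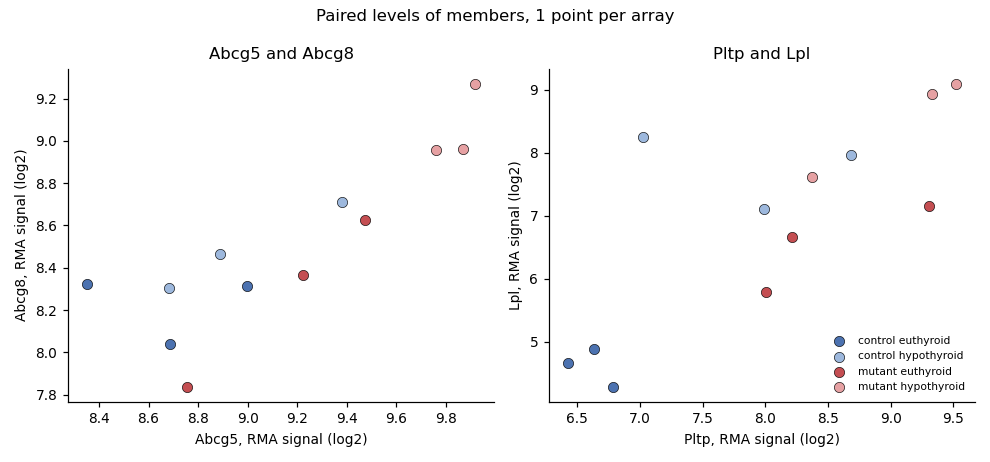
RMA log2 signals of Abcg8 against Abcg5 (left) and of Lpl against Pltp (right), 1 point per array, coloured by group. The 3 hypothyroid mutants have the highest Abcg5 (9.76 to 9.92) and Abcg8 (8.96 to 9.27), and the 3 euthyroid controls have the lowest Lpl (4.28 to 4.89) and Pltp (6.43 to 6.78).

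Abca1 encodes the transporter that loads cholesterol and phospholipid onto lipid-poor apolipoprotein A-I, the first step in making HDL. It read 8.67, 8.21 and 8.62 in euthyroid controls and 8.64, 8.42 and 8.63 in hypothyroid controls. It read 8.80, 8.87 and 8.75 in euthyroid mutants and 8.89, 9.03 and 9.13 in hypothyroid mutants. The differences were small, yet every one of the 6 mutant arrays lay above every one of the 6 control arrays. Of the 7 members this held for 1, Abca1, against 0.643% of all clusters.

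The Abca1 difference between mutant and control was 0.31 ± 0.14 in euthyroid mice (1.24-fold, adjusted p = 0.601) and 0.45 ± 0.14 in hypothyroid mice (1.37-fold, adjusted p = 0.275). Averaged, it was 0.38 ± 0.10 (95% interval 0.17 to 0.59, adjusted p = 0.0817) and was not called. It passed without control euthyroid replicate 13 (adjusted p = 0.023). Hypothyroid against euthyroid, Abca1 differed by 0.066 ± 0.14 in controls (interval -0.23 to 0.37) and 0.21 ± 0.14 in mutants. The control difference changed sign after quantile normalization (-0.033), with array SD as a covariate (-0.15), with array weights (-0.055) and without both outlying arrays (-0.080). Its pooled within-group SD, 0.16, was below the median of all clusters.

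Abcg1 encodes a transporter that passes cholesterol on to HDL particles and is known best from macrophages. It read 5.78, 5.91 and 5.51 in euthyroid controls and 6.40, 5.96 and 6.05 in hypothyroid controls, which did not overlap. It read 5.81, 6.16 and 5.62 in euthyroid mutants and 5.73, 5.98 and 5.95 in hypothyroid mutants, both within the range of the controls. The hypothyroid difference in controls was 0.40 ± 0.17 (1.32-fold, adjusted p = 0.32). All other differences of Abcg1 were smaller, and the averaged mutant difference was -0.059 ± 0.12 (95% interval -0.31 to 0.19, adjusted p = 0.833). That interval leaves out a mutant rise of the size estimated for Abcg5 (0.67), but a difference between Abcg1 and Abcg5 was not tested.

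Mylip encodes the ligase that marks the LDL receptor for breakdown. It read 5.92, 6.15 and 5.82 in euthyroid controls and 6.05, 6.15 and 6.20 in hypothyroid controls. It read 5.83, 5.996 and 5.79 in euthyroid mutants and 5.68, 6.15 and 6.29 in hypothyroid mutants. The groups of mutants and controls overlapped in both thyroid states. The averaged mutant difference was -0.094 ± 0.11 (95% interval -0.33 to 0.14, adjusted p = 0.703), and hypothyroid against euthyroid it was 0.17 ± 0.16 in controls and 0.17 ± 0.16 in mutants. These intervals do not show that Mylip was the same in all groups, only that differences beyond them were not seen.

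The widest gap between groups was that of hypothyroid mutants and euthyroid controls, which are the last and the first in the order of means for 5 of the 7 members. In that comparison 5 of 7 members were called, against 8.33% of all clusters, all of them higher. Lpl differed by 3.94 ± 0.39 (15.4-fold, adjusted p = 8.23e-05) and Pltp by 2.46 ± 0.39 (5.49-fold, adjusted p = 0.00384). Abcg5 differed by 1.17 ± 0.21 (2.25-fold, adjusted p = 0.00847), Abcg8 by 0.84 ± 0.19 (1.79-fold, adjusted p = 0.02) and Abca1 by 0.52 ± 0.14 (1.43-fold, adjusted p = 0.0386). Abcg1 (0.15) and Mylip (0.073) were not called. This comparison shares its arrays with those above and changes genotype and thyroid state at once. The opposite diagonal, euthyroid mutants against hypothyroid controls, had 0 of 7 members called in limma (2.64% of all clusters), with 1 of 7 at an unadjusted p under 0.05 (12.5% of all clusters). Lpl was lower in euthyroid mutants there (-1.24 ± 0.39, adjusted p = 0.135) and Pltp higher (0.61 ± 0.39).

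**Figure D5:**
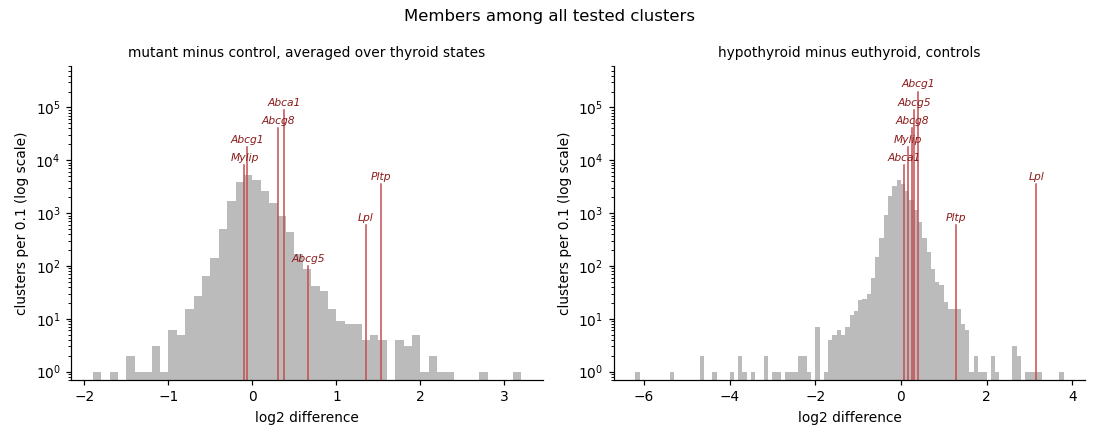
Histograms of the log2 difference of all 21789 clusters (bins of 0.1, log vertical axis) for mutant minus control averaged over thyroid states (left) and for hypothyroid minus euthyroid controls (right), with the 7 genes marked by lines whose heights have no meaning. Pltp (1.53), Lpl (1.35) and Abcg5 (0.67) lie in the upper tail on the left, and Abcg1 and Mylip lie near the centre there. On the right Lpl (3.16) lies farthest out, followed by Pltp (1.29), which is in the upper tail too.

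The receptors that act on these genes showed no call. Nr1h3, which encodes LXR alpha, averaged 8.23 in euthyroid controls, 8.17 in hypothyroid controls, 8.21 in euthyroid mutants and 8.15 in hypothyroid mutants. Its averaged mutant difference was -0.021 ± 0.087 (adjusted p = 0.929). Of the 4 receptor genes measured (Nr1h3, Rxra, Rxrb and Rxrg), 0 had a higher value in mutants on average, and in limma 0 were called, with 2 at an unadjusted p under 0.05, against 16.7% of all clusters. The largest difference was that of Rxra, the main RXR of liver, at -0.38 ± 0.12 (adjusted p = 0.158), followed by Rxrg at -0.31 ± 0.11 (adjusted p = 0.191). Nr1h2, which encodes LXR beta, was not analysed here. Of 4 measured partners of NCoR (Hdac3, Tbl1x, Tbl1xr1 and Gps2), 0 were called in limma in the averaged mutant effect, against 1.14% of all clusters. An unadjusted p under 0.05 was seen for 1 of the 4, against 16.7%. Tbl1xr1 (0.27, adjusted p = 0.234) and Hdac3 (-0.031, adjusted p = 0.918) were at the ends.

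Other LXR targets outside sterol transport, listed with earlier results of these data known, were read beside the 7 genes. Of 12 measured, 5 were called higher and 0 lower in the averaged mutant effect, against 1.14% of all clusters in either direction. Their median was 0.52, beside -0.01 for all clusters and 0.38 for the 7 members. The 5 were the fatty acid synthesis genes Scd2 (1.93), Fasn (1.30), Acaca (1.24) and Scd1 (0.84) and the carbohydrate response factor Mlxipl (0.62, adjusted p = 0.0461). Lpcat3, which remodels phospholipids, came close (0.43 ± 0.10, adjusted p = 0.0547). Srebf1, the LXR target that drives fatty acid synthesis, differed by 0.30 ± 0.11 (adjusted p = 0.176). Apoe (0.035) and Apoc1 (-0.0092), LXR targets in macrophages, were not called. The lowest value of the list was that of Abca3 (-0.37 ± 0.15, adjusted p = 0.253). Cyp7a1, the rate-limiting enzyme of bile acid synthesis and an LXR target in rodents, fell by 2.42 on the log2 scale with hypothyroidism in controls (adjusted p = 0.014), while Scd1 rose by 0.82 (adjusted p = 0.0326) and Scd2 by 0.92 (adjusted p = 0.0228). Its averaged mutant difference was 1.24 ± 0.32 (adjusted p = 0.075).

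Genes around LPL were mixed. Of 12 measured genes of LPL control and triglyceride-rich lipoproteins, 1 was called higher and 0 lower in the averaged mutant effect (median -0.07), against 1.14% of all clusters. That gene was Cd36, a fatty acid receptor (0.88 ± 0.19, adjusted p = 0.0381). With hypothyroidism in controls Cd36 (1.85, adjusted p = 0.00199) and Vldlr, a lipoprotein receptor (1.55, adjusted p = 0.0117), rose as Lpl did, and the endothelial lipase gene Lipg fell by 1.06 on the log2 scale (adjusted p = 0.0451). Gpihbp1, which anchors LPL to capillaries, differed by -0.33 ± 0.08 in the averaged mutant effect (adjusted p = 0.072), and the LPL inhibitor Angptl4 by -0.11 ± 0.17 (adjusted p = 0.786).

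Of 13 other measured ABC transporters of liver, 1 was called higher and 0 lower in the averaged mutant effect (median 0.20), against 1.14% of all clusters. It was Abcb11, the bile salt export pump (0.53 ± 0.11, adjusted p = 0.0336), which works at the same canalicular membrane as the Abcg5 and Abcg8 pump. With hypothyroidism in controls Abcc3, an exporter of conjugates into blood, rose by 1.03 and Abca2 fell by 1.17 on the log2 scale (adjusted p = 0.000736 and 0.000809). Both moved the same way in mutants, Abcc3 by 0.94 and Abca2 by -0.78 (adjusted p = 0.00208 and 0.0207). Of 9 measured genes of sterol uptake, esterification and HDL, in limma 0 were called in the averaged mutant effect and 2 had an unadjusted p under 0.05, against 16.7% of all clusters (median -0.06). The 2 largest differences there were those of Lcat (-0.32, adjusted p = 0.128), the enzyme that esterifies cholesterol on HDL, and Npc1 (-0.27, adjusted p = 0.216), which moves cholesterol out of lysosomes. Osbpl3 rose with hypothyroidism in controls (0.86, adjusted p = 0.0297).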

How the data were processed

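Liver RNA of 12 mouse samples was measured on 1 array each. The deposited values are log2 signals made by the authors with RMA, per the submitters' processing notes. The version and options of RMA are not stated there. RMA tends to shrink differences of dim probe sets. With 3 arrays a group, their number limits precision. The table held 35557 clusters with 0 missing values; the platform annotation gave 1 symbol to 21789, several to 1621 and none to 12147. A limma (3.58.1, R 4.3.3) model with 4 group means was fitted to the 21789 clusters using the 12 arrays together, 8 residual and 6.83 prior degrees of freedom. P-values were adjusted by Benjamini-Hochberg over these clusters, comparison by comparison. Adjusted p-values are from this fit unless an alternative is named. The fit was tested on simulated data.

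The members and lists were chosen with earlier results of these data known. The named genes are the 7 members and, of each list, the called genes or, with none called, the 2 with the largest averaged mutant difference; other names were chosen after their values were seen. Symbols were matched as the annotation gives them. Promoters are RefSeq's (GRCm38.p6). Alternatives were other normalization, centring, filters, samples, covariates, weights, variance models and thresholds, and each array left out.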

Additional observations from a re-analysis of the deposited data

How the results depend on the processing

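Of 868 values of members under 21 alternative settings, 778 kept their direction and their side of the threshold, 36 lost a call, 19 gained one and 35 changed sign; the sign changes touched 10 values, 0 of them called. For the count of members called in euthyroid mutants against controls (0), array weights and the looser threshold of adjusted p under 0.1 both gave 2, and leaving out arrays gave 0 to 1. In hypothyroid mutants against controls (0) the compared groups alone gave 1 and array weights 2, with 0 to 0 for left-out arrays. In hypothyroid against euthyroid controls (1) array weights gave 4, with 1 to 1 for left-out arrays. In hypothyroid against euthyroid mutants (1) median centring, clusters above the median level, array weights and the looser threshold gave 2, while every cluster of the table, array SD as covariate and both outlying arrays left out gave 0; left-out arrays gave 0 to 2. With a variance trend and robust fit, Abcg8 (adjusted p = 0.0456) passed there in place of Lpl (0.0809). For the averaged mutant effect (3) every cluster of the table, array SD as covariate and both outlying arrays left out gave 0. A variance trend with robust fit gave 1, and left-out arrays gave 1 to 4. The interaction count was 0 throughout. No neighbouring groups differed in the main fit; array weights gave 2 pairs and left-out arrays 0 to 1. The estimation of array weights stopped before it converged, so its counts carry little weight.

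The sign changes were these. With quantile normalization they were Abcg8 in euthyroid mutants against controls (-0.0050), Abca1 with hypothyroidism in controls (-0.033), Abcg1 with hypothyroidism in mutants (-0.032) and the Mylip interaction (-0.013). With array SD as covariate they were Abcg8 in euthyroid mutants (-0.024), Lpl in hypothyroid mutants against controls (-0.055), Abca1 with hypothyroidism in controls (-0.15) and mutants (-0.13), Abcg1 with hypothyroidism in mutants (-0.14) and the Mylip interaction (-0.028). With array weights they were Abcg8 (-0.056) and Mylip (0.029) in euthyroid mutants, Abca1 with hypothyroidism in controls (-0.055), the Mylip interaction (-0.095) and averaged Abcg1 (0.033). Without both outlying arrays they were Abca1 with hypothyroidism in controls (-0.080), Abcg1 with hypothyroidism in mutants (-0.010) and the Mylip interaction (-0.22). Over left-out arrays the values ran from -0.12 to 0.27 for Abcg8 and -0.018 to 0.25 for Abcg1 in euthyroid mutants, and from -0.22 to 0.088 for Mylip in hypothyroid mutants. With hypothyroidism they ran from -0.080 to 0.15 for Abca1 in controls and -0.099 to 0.17 for Abcg1 in mutants. They ran from -0.12 to 0.18 for the Mylip interaction and from -0.13 to 0.0078 for averaged Abcg1. The cause was not tested. Another cluster of the same symbol was not run, since each member has 1. No paired analysis was possible because the groups share no replicate numbers.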

Other observations

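The genes whose main cluster was most like each member over the 12 arrays, among 9896 other genes at or above the median cluster level, are given as a description, since the arrays fall into 4 groups and share their normalization. Pltp was most like Scd1, the stearoyl-CoA desaturase and an LXR target (r = 0.91), followed by Aktip (0.90) and Trp53bp2 (0.89). Scd1 averaged 11.75, 12.57, 12.87 and 13.12 in euthyroid controls, hypothyroid controls, euthyroid mutants and hypothyroid mutants, the order of Pltp. Aktip and Trp53bp2 did not share that order. Their means were higher in hypothyroid controls (6.15 and 6.65) than in euthyroid mutants (6.09 and 6.59). Lpl was most like the glutathione transferase genes Gstm6 (0.95) and Gstm2 (0.94) and Csnk1a1 (0.94). Abcg5 was most like Fuca1, Mtr and Dnttip2 (0.91 each) and Abcg8 like BC004004 (0.93), Ubqln2 (0.91) and D730003I15Rik (0.90). Abca1 was most like Stradb, Psip1 and Rnf6 (0.95 each). Abcg1 was most like Gm5617 (0.91), Carm1 (0.89) and Pvr (0.85), and Mylip like Sec16b (0.89), Arid1b (0.88) and Tmem175 (0.88).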
